A study of Mus musculus with 6 samples.

Results

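The genes described are those of arginine and polyamine metabolism around Arg2, the mitochondrial arginase. They were chosen by symbol as 10 genes: the arginases Arg1 and Arg2, the arginine-synthesis enzymes Ass1 and Asl, the ornithine aminotransferase Oat, and the polyamine genes Odc1, Azin1, Srm, Sms and Amd1. Of the 10, 7 had a probeset annotated with that gene alone, among 19938 such genes on the array. Ass1 and Sms lay only on probesets shared with a second symbol, and no probeset was listed under Amd1, which is not analysed here. In all, 12 of 35556 probesets carried a member's symbol, 8 of them as the only one.

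The 6 samples came from mouse embryonic stem (ES) cells with the fluorescent reporter 2C::tomato, sorted by flow cytometry into reporter-positive and reporter-negative cells, 3 of each. All 6 titles mark the cells as wild type (WT), and replicate numbers 1 to 3 occur in both groups. The cells were grown on gelatin in ES-KOSR medium. The common protocol names vehicle or 4OHT, the latter to delete Kdm1a, and the labels do not say which of these the 6 samples received. In published work the reporter is driven by a promoter of an endogenous retrovirus that is active in the early embryo, so it marks a transient state and not a lineage. The labels name no clone or strain and do not state whether replicates were independent cultures, so p-values cover only the variation among these samples, possibly technical. Each array reads a bulk population: a larger share of cells with a transcript and more of it per cell cannot be told apart.

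Arginase cleaves arginine into urea and ornithine. Arg1 is the cytosolic enzyme of the liver urea cycle and of some macrophages, and Arg2 is its mitochondrial counterpart in other tissues. Ornithine then has 2 main fates: Oat turns it toward glutamate and proline, and ornithine decarboxylase (Odc1) turns it into putrescine, from which Srm and Sms build spermidine and spermine with a donor group made by Amd1. Azin1 protects ornithine decarboxylase from its antizymes. Ass1 and Asl make arginine from citrulline and aspartate. Dividing cells, ES cells among them, depend on polyamines for growth.

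Arg2 was 9.32-fold higher by its group means, with no overlap between the groups, while the other 6 members with a probeset of their own differed by between -0.15 and 0.31 on the log2 scale. No member passed the comparison of the 2 groups (limma, Benjamini-Hochberg adjusted over all 19938 genes), and 0.0% of all genes passed. At an unadjusted p under 0.05, 1 of the 7 members was higher, against 1.95% of all genes, and 0 were lower, against 2.46%. The member was Arg2. By sign alone 2 of the 7 were higher, Arg2 and Oat, against 39.8% of all genes. The median log2 difference, always positive minus negative, was -0.053 over the 7 members and -0.061 over the 6 without Arg2, against -0.043 over all genes.

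The labelled cell type was checked by its markers. All 10 ES cell markers on the list lay between 10.24 and 13.70 on the log2 scale, with Pou5f1 between 12.08 and 12.69. Kdm1a lay between 10.91 and 11.25. Array medians over all probesets were 6.95 to 7.04. The 10 fibroblast markers had a mean of 7.766 to 7.999 on the negative and 7.41 to 8.05 on the positive arrays, with a median difference of -0.28. Among them Acta2 differed by -1.16 (SE 1.06) and was 2.85 log2 units higher in replicate 2 than in the other numbers, with an adjusted p of 0.024 in an F test of the replicate number (limma). Acta2 was lower in all 3 pairs, by -0.71, -0.60 and -2.15, as were 23.8% of all genes. Of the 10 markers 3 were higher and 7 lower, and 60.2% of all genes were lower. Col1a1 was lower, by -0.41, and Thy1 higher, by 0.55, each with no overlap. Of all genes 7.15% were lower and 4.08% higher without overlap. At an unadjusted p under 0.05 in a fit blocked on replicate number (limma), 4 of the 10 were lower and 1 higher. The shares of all genes were 6.61% and 5.4%. Fn1 lay between 12.15 and 12.44. The part of such cells in the results was not tested.

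Arg2 (probeset 10396831) was low and even on the negative arrays and spread widely on the positive ones. Its log2 levels were 5.88, 5.60 and 5.58 on negative arrays 1, 2 and 3. They were 8.18, 11.58 and 6.96 on positive arrays 1, 2 and 3. Every positive array lay above every negative array, and the positive arrays spanned 4.62 log2 units, or 24.6-fold, against 0.31 for the negative ones.

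The mean Arg2 level in positive cells was 8.91 ± 2.40 (SD, n = 3). In negative cells it was 5.69 ± 0.17 (SD, n = 3). The log2 difference of 3.22 (SE 1.05) had a 95% interval from 0.73 to 5.70 and did not pass (limma adjusted p = 0.910). The fit blocked on replicate number gave an adjusted p of 0.397. Pairs 1, 2 and 3 differed by 2.30, 5.98 and 1.38, that is 4.91-fold, 63.2-fold and 2.60-fold. The negative arrays lie below the array medians, and nothing in the deposited values shows that Arg2 was above background there. These folds are therefore ratios of RMA values that RMA may compress, not measured ratios of transcript. The direction was the same in each pair. The size depended strongly on positive array 2: without that array the difference was 1.88, and without both replicate 2 arrays it was 1.84. By the size of its difference Arg2 ranked 10 among all 19938 genes. Of the 7 members it alone was at least 2-fold higher, against 0.512% of all genes, and 0 were 2-fold lower, against 0.015%. It alone was higher without overlap, against 4.08%.

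**Figure D1:**
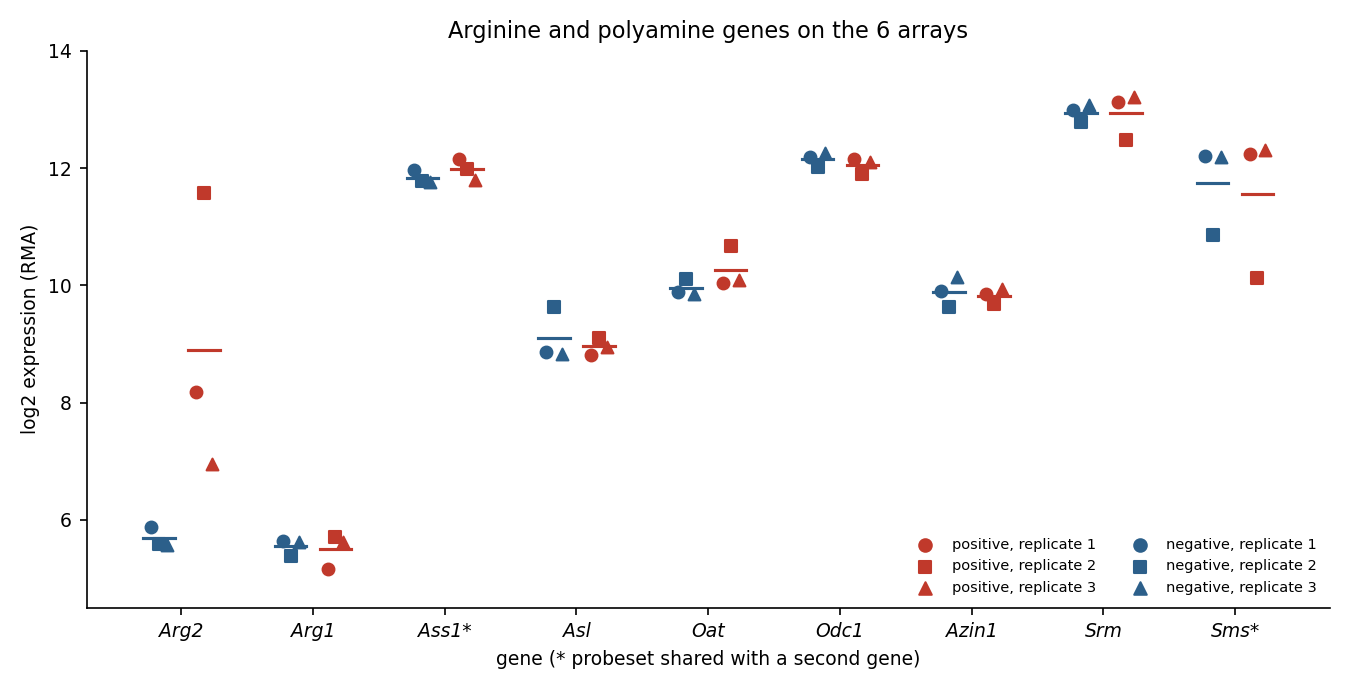
Log2 expression (vertical axis, RMA) of 9 members on each of the 6 arrays, blue for reporter-negative and red for reporter-positive cells, with a symbol for each replicate number and a line at each group mean (n = 3). Arg2 separates the groups, with positive arrays at 6.96 to 11.58 and negative arrays at 5.58 to 5.88; Sms is low on both replicate 2 arrays.

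Arg1, the other arginase, did not follow Arg2. Its levels (probeset 10368343) were 5.64, 5.39 and 5.63 on negative arrays 1, 2 and 3 and 5.16, 5.71 and 5.63 on positive arrays 1, 2 and 3. The groups overlapped fully, and the array with the most Arg2, positive array 2, held the highest Arg1 value by a small margin. The difference was -0.053 (SE 0.17, limma adjusted p = 0.980), with a 95% interval from -0.46 to 0.35, and the pairs differed by -0.48, 0.32 and -0.0026. Its sign turned without positive array 1, at 0.12, and with a second quantile normalization, at 0.041.

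Cell types known for Arg1 were checked by their own markers. The macrophage list had a mean of 6.21 to 6.56 on negative and 6.22 to 6.59 on positive arrays over 9 measured markers, 4 of them higher and 5 lower. Among its defining genes Ptprc lay between 5.28 and 5.61, and Adgre1 between 4.84 and 5.13, on the 6 arrays. Cd68, a lysosomal protein, lay between 11.47 and 11.85. Lyz2 was at 6.95 and 7.74 in replicate 1 of the negative and positive cells and between 4.70 and 5.06 elsewhere. The hepatocyte list had a mean of 6.18 to 6.64 and 6.205 to 6.498 in the same order, with Alb between 4.82 and 5.31 and Apoa2 between 8.82 and 10.42. Of 9 measured hepatocyte markers 2 were higher and 7 lower, with a median difference of -0.14, and 60.2% of all genes were lower. Ahsg lay between 7.06 and 8.37 and was higher in all 3 pairs, by 0.74, 0.17 and 0.74, as were 15.1% of all genes. Cyp2e1 was lower without overlap, by -0.14, as were 7.15% of all genes. The deposited values carry no call of presence, so no gene can be called absent from them, and the part of such cells was not tested.

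Neither gene of arginine synthesis passed the test. Both probesets of Ass1, argininosuccinate synthase, are shared with Gm5424, a transcribed pseudogene in RefSeq, and their signals cannot be told apart. On the brighter one (probeset 10363541), negative arrays 1, 2 and 3 were at 11.96, 11.78 and 11.76 and positive arrays 1, 2 and 3 at 12.16, 11.98 and 11.80. Each positive array was above its same-numbered negative array, by 0.20, 0.19 and 0.043, but the groups overlapped. Of the 19938 genes with a probeset of their own, 15.1% were higher in all 3 pairs. The difference was 0.15 (SE 0.13) in a fit over all 35556 probesets (limma adjusted p = 0.906), and the second probeset gave 0.14.

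Asl, argininosuccinate lyase, which completes arginine synthesis (probeset 10534120), stood at 8.86, 9.64 and 8.83 on negative arrays 1, 2 and 3. It stood at 8.82, 9.11 and 8.94 on positive arrays 1, 2 and 3. The highest array of each group was replicate 2, and the groups overlapped. The difference was -0.15 (SE 0.23, limma adjusted p = 0.954), and it was 0.11 without negative array 2. The array with the most Arg2 therefore had an Asl level 0.53 below its same-numbered negative array, while pairs 1 and 3 differed by -0.041 and 0.11.

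Oat was the only member beside Arg2, of those with a probeset of their own, that was higher in every pair. Its levels (probeset 10568568) were 9.88, 10.11 and 9.86 on negative arrays 1, 2 and 3 and 10.04, 10.66 and 10.09 on positive arrays 1, 2 and 3. The groups overlapped because negative array 2 lay above both positive arrays 1 and 3. The pairs differed by 0.16, 0.55 and 0.23. Over all genes, 15.1% were higher in all 3 pairs.

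The difference of Oat was 0.31 (SE 0.19), or 1.24-fold, and did not pass (limma adjusted p = 0.910). In the blocked fit its unadjusted p was 0.033, and its adjusted p was 0.401. In that fit 2 of the 7 members, Arg2 and Oat, were higher at an unadjusted p under 0.05, against 5.4% of all genes, and 0 were lower, against 6.61%. Without positive array 2 the difference was 0.11. Arg2 and Oat both had their highest positive value on array 2, and both arrays of replicate 2 held the most Oat of their group.

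Odc1, the enzyme at the entry to polyamines, was slightly lower in every pair. Its levels on the probeset with the higher mean (10582295) were 12.19, 12.01 and 12.25 on negative arrays 1, 2 and 3 and 12.15, 11.90 and 12.11 on positive arrays 1, 2 and 3. On this probeset the groups overlapped. The pairs differed by -0.048, -0.11 and -0.14, and 23.8% of all genes were lower in all 3 pairs. The difference was -0.10 (SE 0.12, limma adjusted p = 0.938), with a 95% interval from -0.39 to 0.19. Without positive array 2 it was -0.026. On its other probeset (10394770) the difference was -0.11 and the groups did not overlap, with positive arrays at 11.76 to 11.85 and negative arrays at 11.89 to 11.99. Of all genes, each on its kept probeset, 7.15% were lower without overlap.

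**Figure D2:**
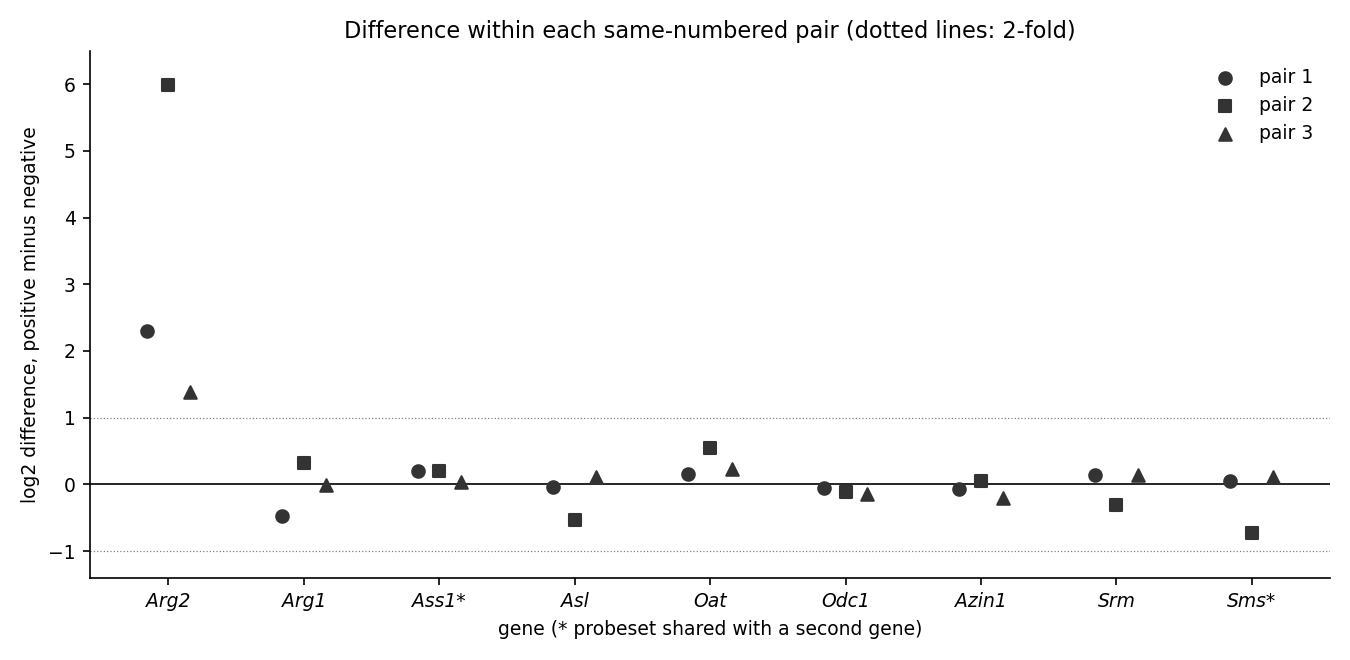
Log2 difference, positive minus negative, within each same-numbered pair of arrays (1 point per pair) for 9 members; the dotted lines mark a 2-fold difference either way. The Arg2 pairs lie at 1.38 to 5.98, and no pair of any other member reaches 2-fold.

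The 2 members that share ornithine as a substrate, Oat and Odc1, thus differed in the sign of their small shifts. Neither shift passed, and the difference between them was not tested. The bases just before their annotated starts are shown to set the 2 branch enzymes side by side, each as the 250 bases upstream of the start on the gene's own strand, from RefSeq on GRCm38.p6. Capitals mark matches on either strand to the GC box, spelled GGGCGG, and to the pentamer of the CCAAT box. Oat lies on the minus strand at chr7:132576399-132576648 and Odc1 on the plus strand at chr12:17544623-17544872.
Oat: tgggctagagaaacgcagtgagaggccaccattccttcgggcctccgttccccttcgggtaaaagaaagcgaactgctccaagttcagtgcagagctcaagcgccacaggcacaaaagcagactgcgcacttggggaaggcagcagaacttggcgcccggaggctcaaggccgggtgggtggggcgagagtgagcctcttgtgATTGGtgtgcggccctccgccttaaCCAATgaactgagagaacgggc
Odc1: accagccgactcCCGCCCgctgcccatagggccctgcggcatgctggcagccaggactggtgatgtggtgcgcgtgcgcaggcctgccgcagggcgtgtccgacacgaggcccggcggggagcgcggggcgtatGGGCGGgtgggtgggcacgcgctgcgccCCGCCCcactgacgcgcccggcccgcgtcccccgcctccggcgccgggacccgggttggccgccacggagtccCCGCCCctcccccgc
The Oat window held 2 CCAAT matches, at 47 and 22 bases before the start, and no GC box. The Odc1 window held 4 GC boxes and no CCAAT match. Of 32851 windows of this length in the table, 33.8% held a CCAAT match and 32.7% a GC box. The TATA box, searched as TATAAA, matched neither window on either strand, and nor did the E-box, searched on both strands as CACGTG. All windows held them in 12.4% and 6.02% of cases. The GC content was 60.0% for Oat and 80.0% for Odc1, against a median of 52.4% over all windows. These matches describe the letters only, and the expression values do not bear on their use. Windows were found for Oat, Odc1, Ass1, Sms and Amd1, and not for Arg1, Arg2, Azin1, Asl and Srm.

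Azin1, the antizyme inhibitor (probeset 10428310), stood at 9.91, 9.62 and 10.14 on negative arrays 1, 2 and 3. It stood at 9.84, 9.68 and 9.94 on positive arrays 1, 2 and 3. The groups overlapped, and the difference was -0.069 (SE 0.16, limma adjusted p = 0.971). Its sign turned without negative array 3, at 0.057.

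Srm, spermidine synthase (probeset 10510391), was at 12.98, 12.78 and 13.07 on negative arrays 1, 2 and 3 and at 13.12, 12.48 and 13.21 on positive arrays 1, 2 and 3. Replicate 2 was the lowest array of each group. The difference was -0.010 (SE 0.21, limma adjusted p = 0.999), made of pairs at 0.14, -0.31 and 0.14. Without positive array 2 it was 0.22, and the groups then did not overlap. In that setting 10.9% of all genes were higher without overlap.

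Leaving aside the dim Arg1, the 95% intervals of Asl, Oat, Odc1, Azin1 and Srm lay between -0.69 and 0.76, that is between 1.62-fold lower and 1.69-fold higher in positive cells. They are not adjusted for the number of genes.

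The signal of Sms, spermine synthase, was low on the 2 arrays of replicate 2 and similar on the other 4. Both of its probesets are shared with Gm8234, a transcribed pseudogene. On the brighter one (10607524), negative arrays 1, 2 and 3 were at 12.20, 10.86 and 12.19 and positive arrays 1, 2 and 3 at 12.25, 10.13 and 12.30. Against the mean of replicates 1 and 3 of its group, the negative replicate 2 array was lower by 2.52-fold and the positive one by 4.43-fold. The difference between positive and negative was -0.19 (SE 0.67, limma adjusted p = 0.980), and without positive array 2 it was 0.53. An F test of the replicate number with the group in the model gave an unadjusted p of 0.0025 and an adjusted p of 0.127, and 0.0% of all probesets passed that test.

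In the fit over genes, 5.65% of genes passed the same F test, and 0 of the 7 members did. At an unadjusted p under 0.05 there were 4, Azin1, Oat, Asl and Srm, against 24.7% of all genes. In these 4, replicate 2 differed from the mean of the other numbers by -0.31, 0.42, 0.51 and -0.47. Azin1, Srm and the shared Sms signal were thus lowest, and Oat and Asl highest, in the same replicate number of both groups. Odc1 was also lowest there on its probeset with the higher mean, with an unadjusted p of 0.154 in the F test.

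The wider pathway was read from 5 lists of other genes of arginine use, amino acid transport, ornithine and proline, polyamine control and the methionine cycle. Of 73 symbols 63 were measured, 23 higher and 40 lower in positive cells, and 0 passed the test or the test with the replicate block. Of all genes 60.2% were lower, against 63.5% here. Without overlap 3 were higher (4.76%, against 4.08% of all genes) and 4 lower (6.35%, against 7.15%). In the blocked fit 3 were higher at an unadjusted p under 0.05 (limma), against 5.4% of all genes, and 6 lower, against 6.61%. None of the 63 was at least 2-fold apart, and their median difference was -0.033.

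**Figure D3:**
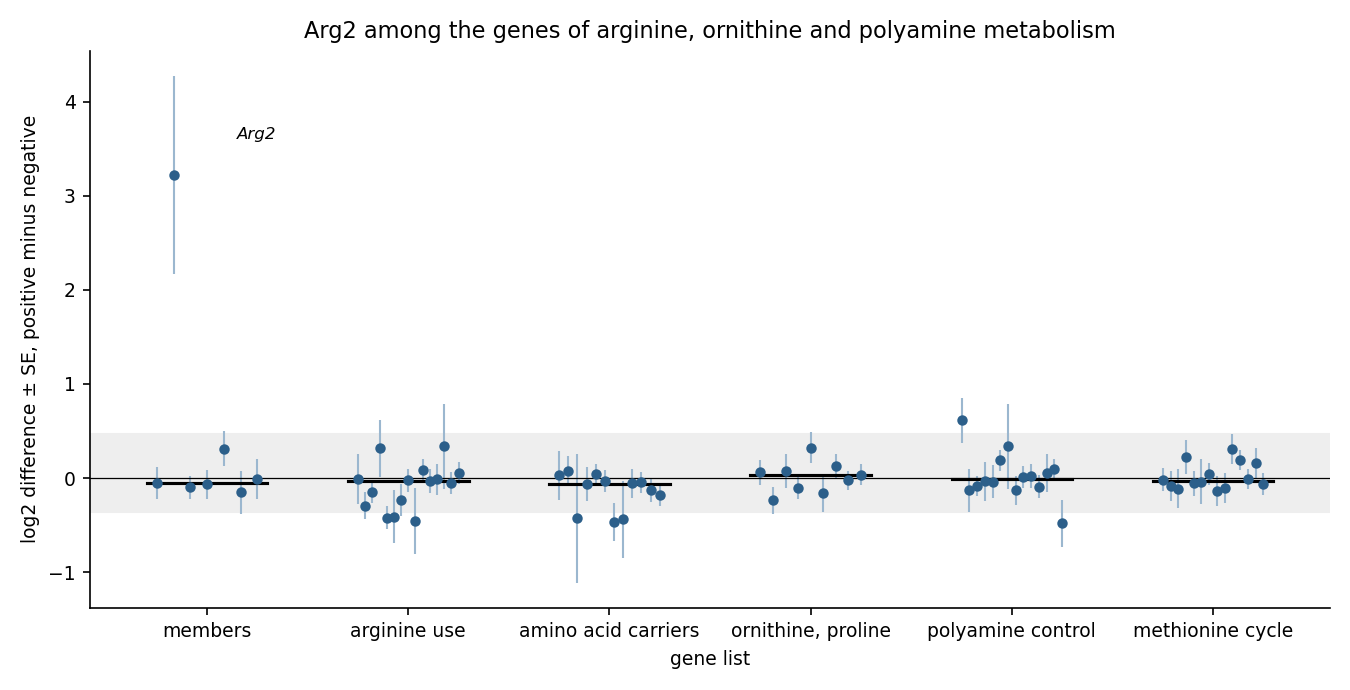
Log2 difference, positive minus negative, with its SE for each measured gene of the members and of 5 other pathway lists; black lines are list medians and the grey band holds the middle 95% of all genes (-0.37 to 0.47). Arg2 stands at 3.22, and the next largest difference on the plot is that of Sat1 at 0.61.

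Polyamine breakdown and control had 14 measured genes, 7 higher and 7 lower. Sat1, which acetylates spermidine and spermine for export or breakdown, had the largest difference of the 63. Its levels were 10.41, 9.60 and 9.87 on negative arrays 1, 2 and 3 and 10.91, 10.49 and 10.31 on positive arrays 1, 2 and 3. The groups overlapped, since positive array 3 lay below negative array 1, but each positive array exceeded its same-numbered negative array, by 0.50, 0.90 and 0.44. Of all genes, 15.1% were higher in all 3 pairs. The difference was 0.61 (SE 0.24), or 1.53-fold, and did not pass (limma adjusted p = 0.910). With the replicate block its unadjusted p was 0.0027 and its adjusted p 0.396 (limma).

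Slc18b1, a vesicular polyamine transporter, was lower without overlap, by -0.48 (SE 0.25), with pairs at -0.28, -1.04 and -0.13, and by -0.18 without positive array 2. Azin2, the second antizyme inhibitor, differed by 0.34 (SE 0.45), a value that turned to -0.17 without positive array 2. The replicate 2 arrays held most of it, at 8.63 and 9.41, and passed the F test of the replicate number (limma adjusted p = 0.039). Oaz3, the germ cell antizyme, was higher without overlap by 0.19, or 0.12 without negative array 1, and was named after its values were seen. It lay between 5.03 and 5.42, below the array medians, and a filter on the dimmest 30% of genes removed it.

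The list of arginine use held 15 genes of arginine metabolism, the urea cycle, nitric oxide and creatine, and not all of them act on arginine. Azin2 is also on the list of polyamine control. Of the 15 genes 11 were lower, or 73.3%, against 60.2% of all genes, and 0 passed the test. In the blocked fit 4 were lower at an unadjusted p under 0.05 (limma), against 6.61% of all genes, and 0 higher, against 5.4%. Nos2, inducible nitric oxide synthase, was at 6.47, 6.14 and 6.25 on negative arrays 1, 2 and 3 and at 5.79, 5.90 and 5.91 on positive arrays 1, 2 and 3. It was lower without overlap, by -0.42 (SE 0.12), with an unadjusted p of 0.011 and a limma adjusted p of 0.910. All 6 Nos2 levels lay below the array medians, and a filter on the dimmest 30% of genes removed it. Nos3, the endothelial form, differed by -0.41 (SE 0.28) and Gatm, the first enzyme of creatine synthesis, by -0.46 (SE 0.35). Both were lower in all 3 pairs, as were 23.8% of all genes, and their groups overlapped. Without negative array 2 Gatm differed by -0.096, and Nos3 differed by -0.17 without positive array 2 and by -0.19 without negative array 1. Both passed the F test of the replicate number (limma adjusted p = 0.044 and 0.049). Cps1, which starts the urea cycle in mitochondria, was lower without overlap by -0.29, or -0.17 without negative array 1, and was named after its values were seen. Cps1 lay between 5.32 and 5.93, below the array medians, and the same filter removed it.

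Of 12 carriers of cationic amino acids and ornithine 9 were lower, or 75.0%, against 60.2% of all genes, and 0 passed the test. Slc7a6 differed by -0.46 (SE 0.20), by -0.55, -0.85 and -0.0023 in pairs 1, 2 and 3, and by -0.043 with array weights. Slc7a7 differed by -0.44 (SE 0.41) and Slc7a3, an arginine carrier, by -0.43 (SE 0.68). These last 2 differences came from positive array 2, without which they were 0.079 and 0.39. The replicate 2 arrays held the least Slc7a3, at 11.29 and 9.91 against 12.01 to 12.58 elsewhere. Slc25a29, a mitochondrial carrier of basic amino acids, was lower without overlap by -0.18, or -0.11 without negative array 3 or positive array 2, and was named after its values were seen. It lay between 6.24 and 6.68, below the array medians.

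None of the enzymes after Oat passed the test. Of 9 measured genes of ornithine, proline and glutamate 5 were higher and 4 lower. Aldh4a1, which completes the breakdown of proline and ornithine to glutamate, differed by 0.32 (SE 0.16), or 0.18 without positive array 2. It was higher in all 3 pairs, by 0.33, 0.42 and 0.22, as were 15.1% of all genes. Pycrl, of the last step of proline synthesis, differed by -0.24 (SE 0.15), or -0.16 without negative array 2. Glud1, glutamate dehydrogenase, differed by -0.16 (SE 0.20), or 0.040 without negative array 2. In the methionine cycle, which supplies the substrate of Amd1, 5 of 14 were higher and 9 lower. Mtr, methionine synthase, and Mtrr, its reductase, were both higher without overlap, by 0.31 (SE 0.16) and 0.19 (SE 0.11). Of all genes, 4.08% were higher without overlap. Ahcyl2 differed by 0.22 (SE 0.18). Without positive array 2 Mtr differed by 0.15 and Ahcyl2 by 0.057. None of these passed the test.

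Genes with a pattern like that of Arg2 were sought among 2269 genes whose arrays spanned at least 1 log2 unit. No other member with a probeset of its own spans more than 0.82, so the search could not return one of them. The 5 genes with the highest Pearson r with Arg2 were Adh7 (r = 0.999), Gm11545 (0.998), Eif4a3l1 (0.997), Pramel6 (0.997) and Usp17ld (0.996). Adh7 encodes an alcohol dehydrogenase that acts on retinol, and Eif4a3l1 is a copy of an RNA helicase gene. Adh7 was at 7.42, 8.93 and 6.85 on positive arrays 1, 2 and 3 and at 6.24 to 6.51 on the negative arrays. Their differences were 1.38, 2.75, 3.13, 2.49 and 2.83 in the order named, and without positive array 2 they were 0.78, 1.48, 1.67, 1.60 and 1.53. The points of these correlations are 6 arrays, of which positive array 2 sets most of the range, and Eif4a3l1, Pramel6 and Usp17ld have near-identical copies that can share probes.

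None of the genes measured beside Arg2 on chromosome 12 had a difference of its size. In RefSeq gene order on GRCm38.p6, the measured genes are Tmem229b, Plekhh1 and Pigh before it and Vti1b, Rdh11 and Rdh12 after it. Their differences were 0.016, -0.0077, -0.076, 0.12, 0.11 and 0.16 in that order, and none of the 6 was without overlap. Vti1b and Rdh12 were higher in all 3 pairs, as were 15.1% of all genes, and the other neighbours were not. The pairs of Rdh12 differed by 0.19, 0.24 and 0.045. Pigh, an enzyme of GPI anchor synthesis directly before Arg2, was at 7.12, 7.69 and 7.38 on positive arrays 1, 2 and 3 and at 7.31, 7.99 and 7.12 on negative arrays 1, 2 and 3. Vti1b, a membrane fusion protein directly after it, was at 8.75, 9.07 and 8.73 against 8.56, 9.01 and 8.61. On positive array 2, where Arg2 was highest, Pigh lay below and Vti1b 0.059 above its same-numbered negative array.

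**Figure D4:**
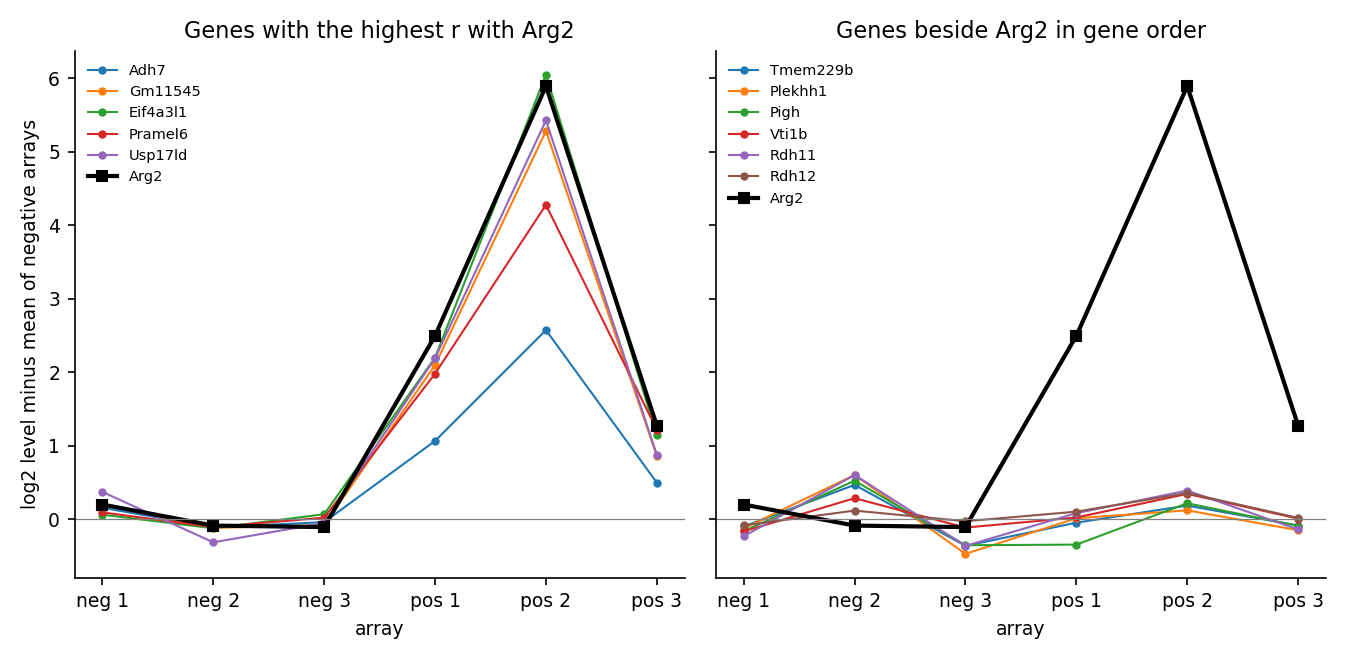
Log2 level minus the mean of the 3 negative arrays (vertical axis) on each array, with Arg2 in black: left, the 5 genes with the highest r with Arg2; right, the 3 measured genes on each side of it in gene order. The genes on the left were chosen for following Arg2, and the neighbours on the right have differences of -0.076 to 0.16.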

How the data were processed

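The authors deposited log2 expression values, 1 column per array, made with RMA in Affymetrix Expression Console per the submitters' processing notes. RMA corrects background, normalizes quantiles between arrays and summarises probes on the log2 scale, which pulls dim probesets together and removes differences in total RNA. Per the labels' protocols, 100 ng of total RNA per sample was labelled. No software version, genome build or annotation version is given in the sources used here.

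Groups and replicate numbers came from sample titles. Symbols came from the platform annotation: 21789 probesets had 1 symbol, 1621 several and 12146 were not listed. RefSeq genes of GRCm38.p6 matched 21698 of the 21789 by gene identifier, with 0 symbols changed. Where a gene had more than 1 probeset, that of highest mean was kept, and no dim gene was filtered out. Arrays correlated at r = 0.961 to 0.992, and none was a copy of another. The number of arrays limits the precision.

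Differences were tested with limma 3.58.1 in R 4.3.3 (lmFit, eBayes, two-sided, Benjamini-Hochberg over 19938 genes, threshold 0.05). The fit was first run on simulated arrays with independent noise and no effect of the replicate number. That run therefore does not show how the fit behaves on data with such an effect. Shared probesets were taken from a fit over all probesets. Fold changes are 2 to the power of the log2 difference. Deviations from group means correlated between same-numbered arrays at r = 0.546, 0.553 and 0.457 for numbers 1, 2 and 3, so the numbers were treated as pairs in the fit with a block. What a number marks is not in the labels.

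The members and lists were chosen with earlier results of these data known. Named genes were all members, the 3 largest differences of each other list, the 5 genes most like Arg2, its 3 neighbours on each side, and Kdm1a, Pou5f1, Nanog and Sox2, of which Nanog lay between 12.54 and 12.98 and Sox2 between 11.57 and 12.46. The F test of the replicate number, the members added from shared probesets and the left-out pairs 1 and 3 were chosen after seeing the data. Alternatives tried were the replicate block, left-out arrays, a filter on the dimmest 30% of genes, the mean of a gene's probesets, median centring, a second quantile normalization and array weights.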

Additional observations from a re-analysis of the deposited data

How the results depend on the processing

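With 3 arrays a group, no member and none of the other named genes passed under any of the alternatives run, the replicate block included. Array weights gave Arg2 its lowest adjusted p, 0.072, with a difference of 2.35, and over 15 alternatives that p reached 1.00. The difference of Arg2 stayed above 0 throughout, from 1.84 without both replicate 2 arrays to 4.19 without positive array 3. The replicate block left it at 3.22 and changed no call. The median difference of the members lay between -0.13 and 0.053 when arrays were left out. Members higher without overlap numbered 1 to 3 when arrays were left out: Oat joined Arg2 without negative array 2 (at 11.0% of all genes), Srm without positive array 2 (10.9%), and both without the replicate 2 pair (19.2%). With median centring there were 2, Arg2 and Oat (3.87% of all genes). Lower without overlap were Odc1 without negative array 2, and Arg1 and Odc1 without the replicate 2 pair. The share of all genes lower in those settings was not taken, so these names are not read as a result about the members. Members higher in every pair numbered 2 to 3 with a pair left out. Srm joined Arg2 and Oat without pair 2, with pairs 1 and 3 at 0.14 each. The share of all genes with a pair left out was not taken, so this count is not read as a result.

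Signs turned for the differences that follow, among them those of Slc7a7, Slc7a3 and Azin2, at -0.44, -0.43 and 0.34 over all arrays, and the causes were not tested. With arrays left out, Arg1 lay between -0.24 and 0.16, Azin1 between -0.20 and 0.057, Asl between -0.29 and 0.11, Srm between -0.15 and 0.22, Slc7a7 between -0.71 and 0.079, Slc7a3 between -0.87 and 0.39, Glud1 between -0.31 and 0.040, Azin2 between -0.17 and 0.64, Tmem229b between -0.17 and 0.25, Plekhh1 between -0.24 and 0.29, Pigh between -0.25 and 0.19, Rdh11 between -0.074 and 0.41, and the shared Sms probeset between -0.63 and 0.53. With array weights, Asl was at 0.019, Srm at 0.059, Slc7a3 at 0.14, Plekhh1 at 0.35 and Pigh at 0.092. With a second quantile normalization Arg1 was at 0.041 and Tmem229b at -0.013, and with the mean of its probesets Tmem229b was at -0.14. The filter on dim genes removed Arg1, Nos2, Cps1, Oaz3 and Rdh12, among others. Dim probesets such as Arg1 limit what RMA values can show.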
